A study of Mus musculus with 15 samples.

Results

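The genes described here build and load major histocompatibility complex (MHC) class I molecules in mouse macrophages. The set has 10 genes: B2m and the heavy-chain genes H2-K1 and H2-D1, the transporter genes Tap1 and Tap2, the loading gene Tapbp, the trimming gene Erap1 and the immunoproteasome genes Psmb8, Psmb9 and Psmb10. Each gene was followed through the probe set with the highest mean over all arrays among those assigned to that symbol alone. This gave 9 of the 10 genes, out of 22180 genes on the array, and all 9 were among the 15468 genes tested. H2-D1 was represented only by a probe set that is also assigned to H2-Q2, so no value is given for it.

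The cells were RAW264.7, an established mouse macrophage line, and each measurement is a log2 expression value from an Affymetrix whole-transcript array. There were 15 arrays, 3 in each of 5 groups, and the 3 arrays of a group came from 3 experiments, each of which supplied 1 array to every group. All groups received 0.1% ethanol as vehicle. The group without lipopolysaccharide (LPS, a bacterial outer-membrane component) received buffer. In the 4 remaining groups LPS was added at 1.0 µg/mL after a pre-incubation of 30 min with vehicle alone, 5.0 µM 13-HDHEA, 5.0 µM 16-HDHEA, or 2.5 µM of each. Cells were harvested after 24 h. 13- and 16-HDHEA are hydroxydocosahexaenoyl ethanolamides that differ in the position of the hydroxyl group. A single cell line models no lymphocyte or other partner cell, and no HDHEA group without LPS was analysed here.

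MHC class I molecules display short peptides from proteins made inside the cell to CD8 T cells. The proteasome cuts the proteins, the TAP1 and TAP2 transporter carries the peptides into the endoplasmic reticulum, aminopeptidases such as ERAP1 trim them, and tapasin, encoded by Tapbp, helps to load them onto a heavy chain paired with beta-2-microglobulin. Interferons are known to raise many of these genes in macrophages, and to replace the constitutive catalytic subunits of the proteasome, encoded by Psmb6, Psmb7 and Psmb5, with the immunoproteasome subunits encoded by Psmb9, Psmb10 and Psmb8.

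In the GRCm38.p6 annotation of RefSeq, 6 of the 9 measured genes lie close together on chromosome 17, in the MHC region. These are Tapbp (chr17:33919478-33929290), H2-K1 (chr17:33996012-34000619), Psmb9 (chr17:34182030-34187330), Tap1 (chr17:34187556-34197225), Psmb8 (chr17:34198195-34201454) and Tap2 (chr17:34204479-34216321). B2m (chr2:122147687-122153082), Psmb10 (chr8:105935728-105938392) and Erap1 (chr13:74639573-74693205) lie on other chromosomes. Tap1 and Psmb9 are transcribed away from each other from starts separated by 225 bases. That interval, chr17:34187331-34187555 on the forward strand and outside both genes, is shown because both of its genes had higher values with LPS.
Tap1 and Psmb9 interval: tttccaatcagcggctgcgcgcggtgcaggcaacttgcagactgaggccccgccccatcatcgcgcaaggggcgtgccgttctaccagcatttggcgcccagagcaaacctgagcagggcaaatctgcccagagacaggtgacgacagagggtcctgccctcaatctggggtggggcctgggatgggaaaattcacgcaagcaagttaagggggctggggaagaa

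RefSeq promoter windows of 300 bases (250 before the gene's start to 50 after it, GRCm38.p6) were on hand for 9 of the 10 genes, H2-D1 included and Tap2 not. They were searched on both strands for the short interferon-response motif AANNGAAA, its longer form in which GAAA recurs after 2 free bases (a match to it is also a match to the short form), the gamma-activated site TTCNNNGAA and the NF-kB site. AANNGAAA occurred in the windows of B2m, H2-D1, H2-K1 and Erap1, 4 of 9, against 24.2% of all 27025 windows. The longer form occurred in those of B2m and Erap1, 2 of 9, against 3.49%. The gamma-activated site occurred in the window of Psmb8 alone, 1 of 9, against 8.47%, and the NF-kB site in B2m, H2-D1 and H2-K1, 3 of 9, against 4.35%. H2-D1 and H2-K1 held the same matched letters, and the windows of Tap1 and Psmb9 overlap, so the 9 windows are not independent. The windows of Tapbp, Tap1, Psmb9 and Psmb10 held no match to any of these motifs. The 30 bases around the matches of the 4 measured genes with a match are shown with the matched bases in capitals, to set the matched letters beside the expression values.
B2m, chr2:122147544-122147573, forward strand: acatGAAACTGAAAatgGGAAAGTCCCttt
H2-K1, chr17:34000430-34000459, reverse strand: tGGGGATTCCCCatctccacagTTTCACTT
Psmb8, chr17:34198087-34198116, forward strand: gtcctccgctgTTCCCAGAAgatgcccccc
Erap1, chr13:74639839-74639868, forward strand: ccaccttcacTTTCACTTTCggtcccgggc
In B2m the interferon and NF-kB motifs stand side by side before the start, and the stretch lies within the annotated span of the neighbouring gene Patl2. The H2-K1 stretch lies within the longest annotated span of H2-K1, before the start used for the window, and the Erap1 stretch spans the start itself. These matches are letters in a reference genome, and binding was not measured. Whether the RAW264.7 cells carry the same letters here, or in the Tap1 and Psmb9 interval, was not tested.

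The array medians lay between 3.62 and 3.69, and the 40th percentile over all probe sets, used here as the limit between dim and measurable probe sets, lay between 3.16 and 3.22. All 9 measured genes exceeded that limit on all 15 arrays. Levels differed widely between them, from a mean of 6.30 for Tap2 without LPS to 12.33 for B2m with both compounds, but probe sets differ in brightness for reasons other than transcript number, so only differences within a gene are compared. Of 12 macrophage markers, 11 exceeded the limit in every array of the group without LPS, among them the pan-leukocyte gene Ptprc and the receptor gene Csf1r.

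With LPS 8 of the 9 measured genes rose and none fell, at a Benjamini-Hochberg adjusted p under 0.05 over all tested genes (limma). Over all tested genes, 13.5% were higher and 16.3% were lower with LPS by the same rule. The median log2 difference over the 9 genes was 0.70, against 0.0002 over all tested genes. For the same 8 genes the 3 arrays with LPS and vehicle all lay above the 3 arrays without LPS, a separation seen upwards in 19.1% of tested genes. In bulk RNA, a change in the share of cells that express a gene and a change in RNA per cell cannot be told apart.

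**Figure D1:**
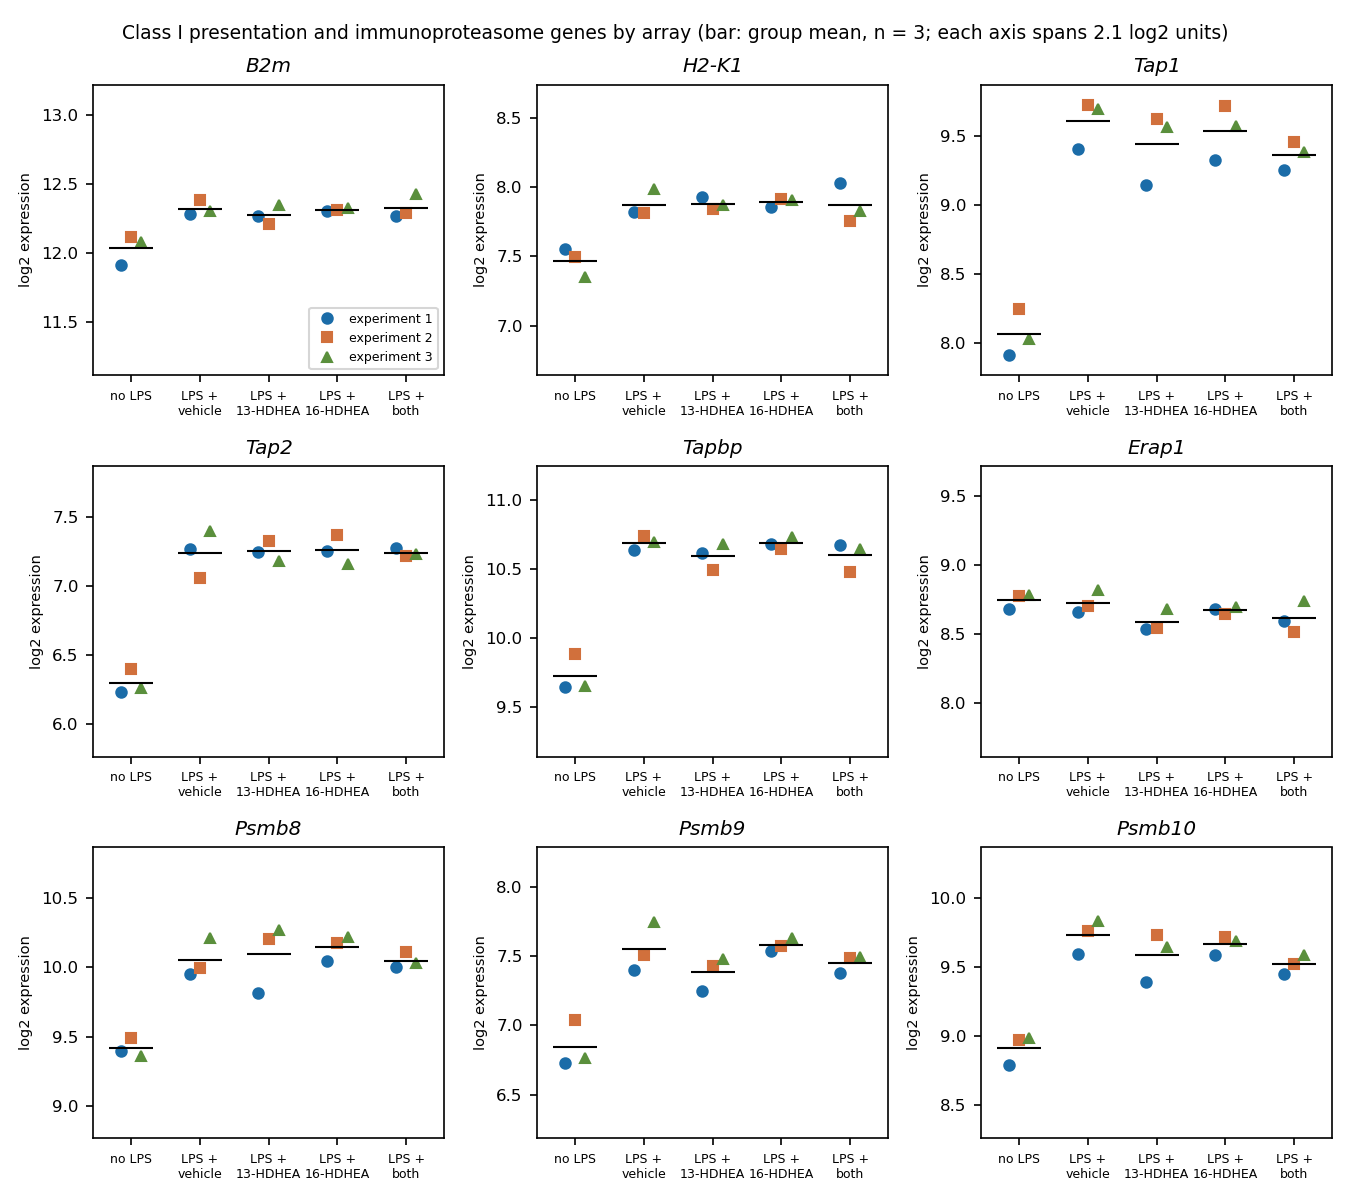
Log2 expression (vertical axis) of the 9 measured class I genes on each of the 15 arrays, by group (horizontal axis), with the group mean as a bar (n = 3) and the experiment shown by the symbol. For every gene except Erap1 the 3 arrays without LPS lie below all 12 arrays with LPS, while the 4 groups with LPS, taken in the order of their means, each overlap the next.

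The 2 surface components had the smallest differences among the genes that rose, although their intervals overlapped that of Psmb8. Whether the probe sets register a change of the same size equally was not tested. B2m, the light chain shared by all class I molecules, had values of 11.91, 12.12 and 12.08 without LPS and 12.28, 12.38 and 12.30 with LPS and vehicle. The groups did not overlap, and the difference was 0.29 (95% interval 0.12 to 0.45, adjusted p = 0.0126 by limma), or 1.22-fold. The B2m call was lost without the first no-LPS array (adjusted p = 0.0609 by limma), without the second LPS vehicle array (0.0506), and when only the 2 groups compared were fitted (0.0543).

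H2-K1, a classical heavy-chain gene, had values of 7.56, 7.50 and 7.35 without LPS and 7.82, 7.81 and 7.99 with LPS and vehicle. All 3 values with LPS were the higher ones, by 0.40 in the mean (interval 0.21 to 0.59, adjusted p = 0.00288 by limma), or 1.32-fold. The rise within an experiment was 0.26, 0.31 and 0.63, highest in experiment 3. Class I heavy chains share near-identical sequence, and how far this probe set also reads other heavy chains, or matches the alleles of this BALB/c-derived line, was not tested.

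The transport and loading genes rose more. Tap1, encoding the transporter's first subunit, had values of 7.91, 8.25 and 8.03 without LPS and 9.41, 9.72 and 9.69 with LPS and vehicle. The difference of 1.54 (interval 1.23 to 1.85, adjusted p = 1.62e-06 by limma), or 2.91-fold, was the largest among the 9 genes, and it was 1.49, 1.48 and 1.66 within the 3 experiments. Tap2, encoding the other subunit, had values of 6.24, 6.40 and 6.26 without LPS and 7.26, 7.05 and 7.39 with LPS and vehicle. The Tap2 difference was 0.94 (interval 0.74 to 1.14, adjusted p = 3.3e-06 by limma), or 1.92-fold, and its interval did not overlap that of Tap1.

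Tapbp encodes tapasin, which bridges the transporter and the empty class I molecule. Its values were 9.65, 9.88 and 9.65 without LPS and 10.63, 10.74 and 10.70 with LPS and vehicle. These groups lay far apart relative to their spread, with a difference of 0.96 (interval 0.77 to 1.15, adjusted p = 1.44e-06 by limma), or 1.95-fold. A dimmer probe set of Tapbp, not used for the counts, averaged 5.47 without LPS and 6.22 with LPS and vehicle, a difference of 0.75 in the same direction.

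The 3 immunoproteasome genes rose by similar amounts. Psmb8, encoding the subunit beta-5i, had values of 9.40, 9.49 and 9.36 without LPS and 9.95, 9.99 and 10.21 with LPS and vehicle, a difference of 0.64 (interval 0.39 to 0.88, adjusted p = 0.000619 by limma). Psmb9, encoding beta-1i, went from 6.72, 7.04 and 6.77 to 7.40, 7.51 and 7.74, a difference of 0.70 (interval 0.47 to 0.94, adjusted p = 0.00016 by limma). In both genes the arrays with and without LPS were separate. Psmb10, encoding beta-2i, went from 8.79, 8.97 and 8.99 to 9.59, 9.76 and 9.83, a difference of 0.81 (interval 0.59 to 1.03, adjusted p = 2.57e-05 by limma). The intervals of the 3 genes overlapped one another, and the folds were 1.55 for Psmb8, 1.63 for Psmb9 and 1.76 for Psmb10. Psmb9 and Tap1, which flank the 225-base interval, differed in the size of the rise, at 0.70 and 1.54 with intervals that did not overlap.

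Erap1 was the exception. This aminopeptidase gene had values of 8.68, 8.78 and 8.78 without LPS and 8.66, 8.71 and 8.82 with LPS and vehicle. The groups overlapped almost completely, and the difference was -0.02 (interval -0.19 to 0.15, adjusted p = 0.90 by limma). The interval allows a rise of up to 1.11-fold. Its sign turned under 2 of 24 other settings, none of which called it.

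**Figure D2:**
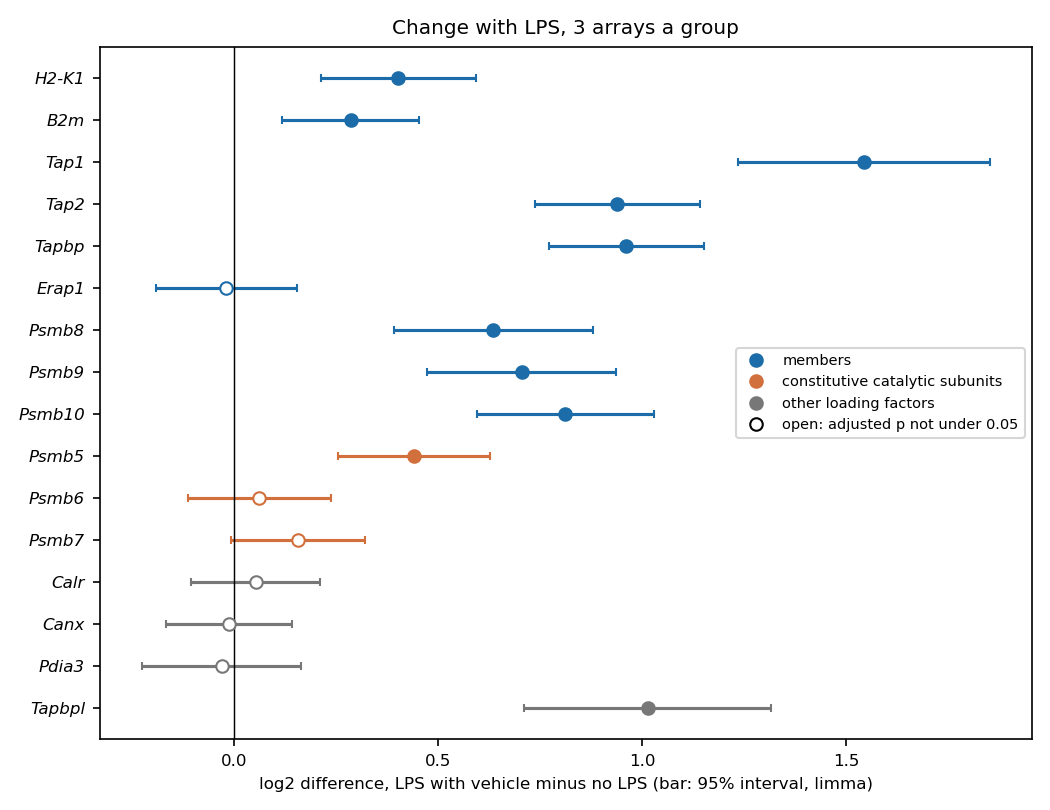
Log2 difference between LPS with vehicle and no LPS (horizontal axis, dots) with 95% limma intervals (bars), 3 arrays a group, for the 9 measured class I genes, the constitutive catalytic proteasome genes and 4 other loading genes; filled dots have an adjusted p under 0.05. Tap1 lies farthest right at 1.54, the immunoproteasome genes lie between 0.64 and 0.81, and Erap1, Psmb6, Psmb7, Calr, Canx and Pdia3 are open.

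The immunoproteasome genes were then set against the constitutive subunits that they replace. Of those 3 genes, Psmb5 rose, by 0.44 (interval 0.25 to 0.63, adjusted p = 0.00132 by limma) and from 9.03 ± 0.04 to 9.47 ± 0.07 (SD, n = 3). Psmb7 had a difference of 0.16 (adjusted p = 0.151 by limma) and Psmb6 one of 0.06 (adjusted p = 0.640 by limma). The difference between the paired genes was then taken on each array, as a change relative to its mean without LPS. Each of these values states that 2 probe sets changed unequally and gives no level of either subunit.

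Psmb9 minus Psmb6 was higher by 0.64 with LPS and vehicle, Psmb10 minus Psmb7 by 0.66, and Psmb8 minus Psmb5 by 0.20. In each pair the 3 arrays with LPS lay above the 3 without, giving an exact two-sided permutation p of 0.1, the smallest that 3 against 3 allows. Over all 12 arrays with LPS, HDHEA groups included, the changes were 0.55 (SD 0.13) for Psmb9 minus Psmb6, 0.54 (SD 0.13) for Psmb10 minus Psmb7 and 0.25 (SD 0.11) for Psmb8 minus Psmb5. All 12 arrays lay above the 3 without LPS in each pair, with an exact two-sided permutation p of 0.0022, the smallest that 12 against 3 allows, and 0.0022 after adjustment over the 3 pairs. These 12 arrays come from 3 experiments and from 4 treatments, which this test does not model. Within the experiments the change of Psmb8 minus Psmb5 was 0.15, 0.20 and 0.40, and that of Psmb10 minus Psmb7 was 0.52, 0.52 and 0.60.

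**Figure D3:**
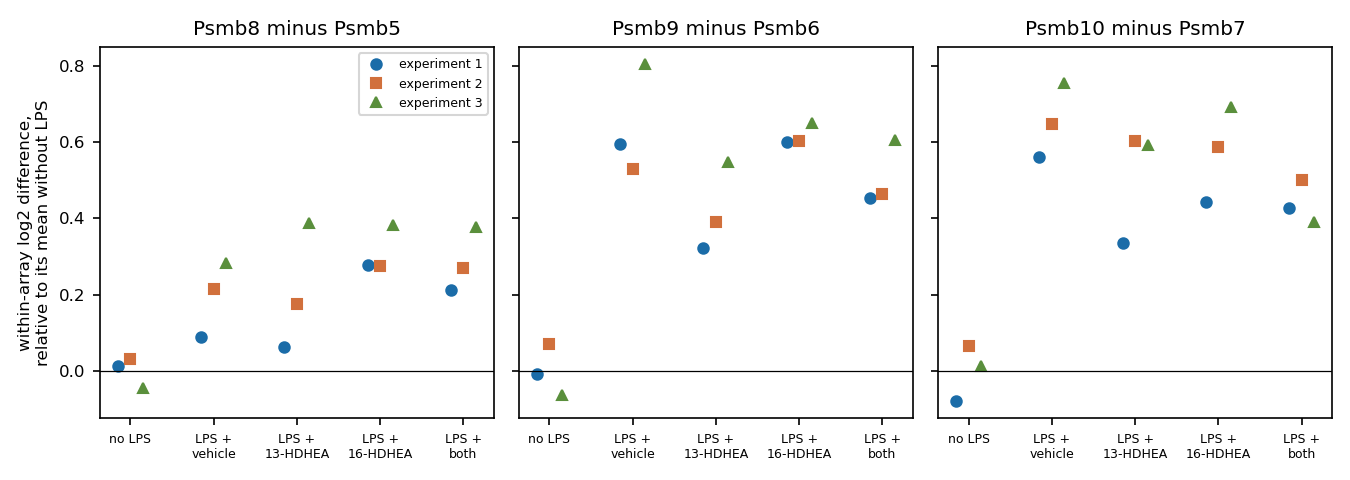
Within-array log2 difference between an immunoproteasome gene and its constitutive counterpart, relative to the mean without LPS (vertical axis), for each of the 15 arrays by group (horizontal axis); symbols mark the experiment. All 12 arrays with LPS lie above the 3 without in each panel, and the shift is smallest for Psmb8 minus Psmb5, at 0.06 to 0.39.

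Other genes of the pathway were taken from lists of related function. The shares to set beside the counts of each list are those of all tested genes, 13.5% higher and 16.3% lower with LPS. Among class Ib and class I-like molecules, whose products resemble class I heavy chains, 7 of 13 tested genes rose and 1 fell, the iron-regulating gene Hfe at -0.69 (adjusted p = 0.00312 by limma). H2-T23, encoding Qa-1, a ligand of natural killer cell receptors, had values of 5.29, 6.40 and 5.62 without LPS and 7.68, 7.71 and 7.74 with LPS and vehicle, a difference of 1.94 (adjusted p = 4.63e-06 by limma). H2-M2 rose by 2.61 (adjusted p = 1.16e-05 by limma). H2-Q10 was below the 40th percentile on all 3 arrays without LPS and averaged 4.95 with LPS and vehicle, so its rise is given as at least 3.45-fold, from the percentile of the arrays without LPS (adjusted p = 5.76e-06 by limma). How far the probe sets of this family read one another's transcripts was not tested. The list's median was 0.38.

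Among 6 loading and quality-control genes, 2 rose and 1 fell, with a median of 0.02. Tapbpl, encoding the tapasin relative TAPBPR, rose by 1.01 (adjusted p = 6.92e-05 by limma), from 6.18, 6.29 and 6.34 to 7.14, 7.45 and 7.26. Sec61a1, encoding the channel of the endoplasmic reticulum membrane, rose by 0.50 (adjusted p = 3.22e-05 by limma). Uggt1, a glycoprotein folding sensor gene, fell by 0.26 (adjusted p = 0.0422 by limma), a call lost without any of 8 of the 15 arrays, the lowest and highest adjusted p over left-out arrays being 0.0214 and 0.124. The chaperone genes Calr, Canx and Pdia3 had differences of 0.05, -0.01 and -0.03, none of which passed the test.

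Of 5 trimming genes beside Erap1, 1 rose and none fell, with a median of 0.12. That gene was Npepps, a cytosolic aminopeptidase gene, at 0.30 (adjusted p = 0.0416 by limma), and its call was lost without any of 7 arrays, with adjusted p up to 0.177. The protease genes Tpp2 and Blmh had differences of 0.18 (adjusted p = 0.0627) and -0.16 (adjusted p = 0.125), which did not pass limma's test.

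Among 9 proteasome activator and assembly genes, 2 rose and 1 fell, with a median of 0.21. Psme1 and Psme2 encode the PA28 activator, which opens the proteasome core. Psme1 rose by 0.54 (adjusted p = 0.00195 by limma). Psme2 rose by 0.56 (adjusted p = 0.0128 by limma), from 5.83, 5.74 and 5.47 to 6.00, 6.32 and 6.42, and lost the call without the third no-LPS array (0.0628) or the third LPS vehicle array (0.0576). The assembly chaperone gene Psmg2 fell by 0.28 (adjusted p = 0.0108 by limma). With experiment as a block 3 genes of the list rose, the added one being Psme4 (0.24, adjusted p = 0.0357 with the block).

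Of 10 other core subunit genes, 4 rose and none fell, with a median of 0.20. Psma6 rose by 0.72 (adjusted p = 1.02e-05 by limma) and was called without every array in turn. Psma7, at 0.33 (adjusted p = 0.012 by limma), was not called without the first no-LPS array (0.06) or the second LPS vehicle array (0.0521). Psmb4, at 0.27 (adjusted p = 0.0239 by limma), was not called without any of 4 arrays, with adjusted p up to 0.105. The remaining one was Psma2, at 0.23 (adjusted p = 0.0409 by limma), not called without any of 10 arrays. Of the 4 genes, 1 kept its call whichever array was left out.

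Among 11 transcription regulators of class I genes, 7 rose and none fell, with a median of 0.44. Nlrc5, the transactivator of class I genes, had values of 5.52, 5.68 and 5.17 without LPS and 6.69, 6.74 and 6.81 with LPS and vehicle, a difference of 1.29 (adjusted p = 1.05e-05 by limma). The largest value was that of Irf7, an interferon regulatory factor gene, at 2.80 (adjusted p = 2.18e-09 by limma). Stat2, which carries the type I interferon signal, rose by 1.33 (adjusted p = 6.4e-07 by limma). Irf1, a regulator of class I and Psmb9 transcription, had values of 6.08, 6.38 and 6.40 without LPS and 6.52, 7.20 and 7.02 with LPS and vehicle. Its difference of 0.63 (adjusted p = 0.0159 by limma) was not called without the first no-LPS array (0.0706), the second LPS vehicle array (0.0783) or the third (0.0568). With experiment as a block Irf2 was lower, at -0.30 (adjusted p = 0.0408 with the block, against 0.19 without it).

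MHC class II genes, which display peptides from outside the cell, gave 2 rises and no fall among 9 tested genes, with a median of -0.05. Of the 9 differences 3 were above 0 and 6 below, the lowest at -0.71, and none of those below 0 was called. H2-Oa and H2-Ob, which encode the peptide-exchange modulator H2-O, were higher by 0.62 (adjusted p = 0.0158 by limma) and 0.47 (adjusted p = 0.0183 by limma). H2-Oa lost the call without the first no-LPS array (0.0613). H2-Ob lost it without the first or second LPS vehicle array (0.0933 and 0.0556) or the third no-LPS array (0.0578). H2-Ab1, a class II chain gene, had a difference of 0.36. Its adjusted p by limma was 0.055, and 0.0287 in the fit that blocks on experiment.

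**Figure D4:**
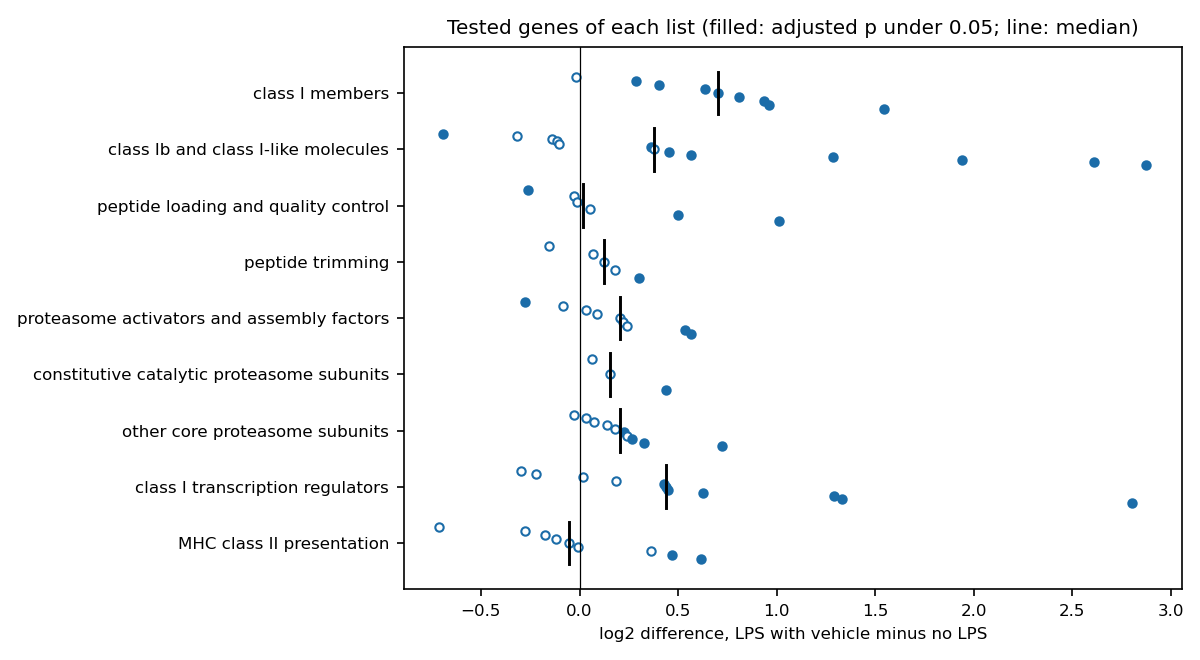
Log2 difference between LPS with vehicle and no LPS (horizontal axis) for each tested gene of the 9 class I genes and 8 related lists (vertical axis); filled dots have a limma adjusted p under 0.05 and the line marks the list's median. The class I set has its median at 0.70 with 8 of 9 dots filled, and the class II list has its median at -0.05 with 2 of 9 filled.

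The HDHEA treatments were compared with vehicle among the arrays that received LPS. None of the 9 class I genes passed limma's test after adjustment in any of these comparisons, and none had an unadjusted p under 0.05. Over all tested genes the share called was 0.00646% for 13-HDHEA, 0% for 16-HDHEA, 0% for the combined treatment, and 0% for the mean of all 3 HDHEA groups. Unadjusted p-values under 0.05 made up 4.27%, 2.97%, 3.48% and 3.79% of tested genes in the same order. With experiment as a block, unadjusted p-values under 0.05 numbered 2 of 9 class I genes for 13-HDHEA, 0 of 9 for 16-HDHEA, 2 of 9 for both and 2 of 9 for the mean, where the same blocked fit gave 6.23%, 4.43%, 5.11% and 5.72% of all tested genes. After adjustment the blocked fit called 0 of 9 in each, and 0.00646%, 0%, 0% and 0% of all tested genes. These comparisons share the 3 vehicle arrays, so their values are given side by side and are not independent of one another.

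With 13-HDHEA the median difference over the 9 genes was -0.09, and 6 of 9 were below 0, against 53.7% of all tested genes. With 16-HDHEA the median was -0.002 and 5 of 9 were below 0, against 50.3%. With both compounds at the lower dose the median was -0.09 and 8 of 9 were below 0, against 51.5%. Within each of the 3 experiments the treated array was below its vehicle array for 5 of 9 genes with 13-HDHEA (14.8% of all tested genes), for 2 of 9 with 16-HDHEA (12.6%) and for 4 of 9 with both (11.7%). The 5 genes for 13-HDHEA were Tap1, Tapbp, Psmb9, Psmb10 and Erap1. All 9 genes are read on the same arrays, so these counts are not over independent observations.

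Tap1 had the largest of these differences. Its values were 9.15, 9.62 and 9.56 with 13-HDHEA, 9.33, 9.71 and 9.57 with 16-HDHEA, and 9.25, 9.45 and 9.38 with both, against 9.41, 9.72 and 9.69 with vehicle. Every treated array lay below the vehicle array of its own experiment, although the groups overlapped. The differences were -0.16 with 13-HDHEA (interval -0.47 to 0.14), -0.07 with 16-HDHEA (interval -0.38 to 0.24) and -0.24 with both (interval -0.55 to 0.06). These intervals do not use the pairing by experiment. With experiment as a block the unadjusted p of Tap1 for 13-HDHEA was 0.0438, and the adjusted one 0.785 by limma.

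Psmb10 had values of 9.45, 9.52 and 9.59 with both compounds, all below the vehicle values of 9.59, 9.76 and 9.83. It was the only one of the 9 genes whose groups did not overlap in that comparison, a downward separation seen in 3.41% of tested genes. The difference was -0.21 (interval -0.43 to 0.01, unadjusted p = 0.0577 by limma). With 13-HDHEA the Psmb10 difference was -0.14 and with 16-HDHEA it was -0.07. With experiment as a block, Psmb10 and Tap1 had unadjusted p-values of 0.00889 and 0.00625 for the combined treatment, and adjusted ones of 0.903 each by limma.

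For the other genes the intervals of the fit without experiment as a block show what sizes remain possible in that fit. B2m, H2-K1, Tap2 and Tapbp had differences from -0.09 to 0.02 over the 3 treatments, and their intervals reached no lower than -0.28 (Tapbp with 13-HDHEA) and no higher than 0.22 (Tap2 with 16-HDHEA). Psmb9 had differences of -0.16 (interval -0.40 to 0.07) with 13-HDHEA, 0.03 (interval -0.20 to 0.26) with 16-HDHEA and -0.10 (interval -0.33 to 0.14) with both. The difference for Psmb8 was 0.05 with 13-HDHEA, 0.10 with 16-HDHEA and -0.002 with both. Erap1, which was not called for LPS, had differences of -0.14 (interval -0.31 to 0.03) with 13-HDHEA, -0.05 with 16-HDHEA and -0.11 with both. With experiment as a block the unadjusted p of Erap1 for 13-HDHEA was 0.0497, and the adjusted one 0.801 by limma. No gene of the related lists was called in any HDHEA comparison either.

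**Figure D5:**
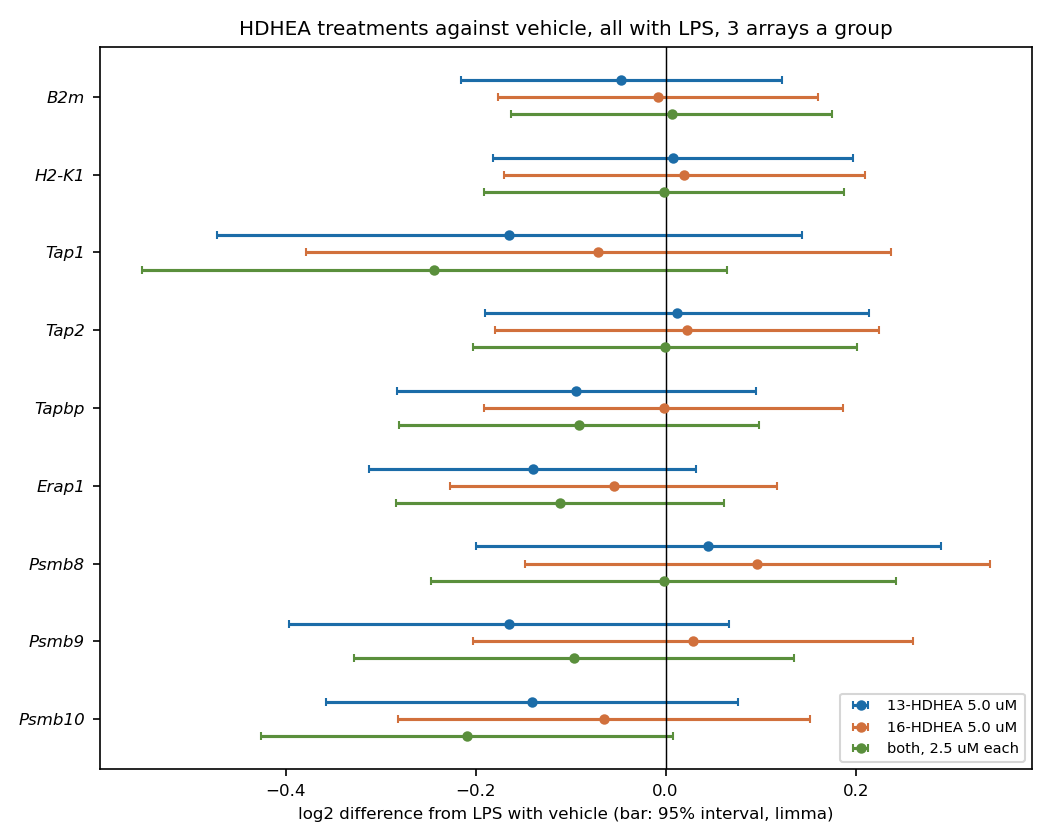
Log2 difference from LPS with vehicle (horizontal axis, dots) with 95% limma intervals (bars) for the 9 measured class I genes under 13-HDHEA at 5.0 µM, 16-HDHEA at 5.0 µM and both at 2.5 µM each, 3 arrays a group. Every interval, taken from the fit without experiment as a block, includes 0. The lowest values are those of Tap1 and Psmb10 with both compounds, at -0.24 and -0.21. In the blocked limma fit both genes had an unadjusted p under 0.05 for that treatment, and neither passed after adjustment.

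The isomers, which differ in the place of the hydroxyl group, could be compared directly, since both were given at 5.0 µM for the same time. This was the only pair in which single compounds were given at the same dose. The combined treatment had the same total dose, split between the isomers, and its values are given above beside theirs with no test between them. The values were lower with 13-HDHEA than with 16-HDHEA in the mean of 9 of 9 genes, against 54.2% of all tested genes. The median was -0.08, against -0.01 over all tested genes. Within each of the 3 experiments the values were lower for 4 of 9, against 13.8%. The 9 genes are read on the same arrays, so these counts are not over independent observations. None of the 9 passed limma's test, where 0.00646% of tested genes did, and none had an unadjusted p under 0.05, where 3.1% of tested genes did. The largest difference was that of Psmb9, with values of 7.25, 7.43 and 7.48 under 13-HDHEA and 7.53, 7.57 and 7.63 under 16-HDHEA. These groups did not overlap, a downward separation seen in 3.58% of tested genes, and the difference was -0.19 (interval -0.43 to 0.04, unadjusted p = 0.0945 by limma, 0.0477 with experiment as a block, where its adjusted p was 0.999). It was the only one of the 9 with an unadjusted p under 0.05 in the blocked fit, where 4.23% of tested genes had one and 0.00646% were called. For H2-K1 and Tap2 the isomers differed by -0.01 each, with intervals of -0.20 to 0.18 and -0.21 to 0.19. The sign held for H2-K1 under 21 and for Tap2 under 20 of 24 other settings.

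The order of the group means was alike in 8 of the 9 genes in that the group without LPS came first from below and did not overlap the next. Above it the order varied. For Tap1 and Psmb10 the means rose from the combined treatment (9.36 and 9.52) through 13-HDHEA (9.44 and 9.59) and 16-HDHEA (9.54 and 9.66) to vehicle (9.61 and 9.73), with ranges that overlapped at each step. For B2m the means with LPS spanned only 12.27 to 12.33 and for Tap2 7.24 to 7.26. The experiments also differed: over the 4 arrays with LPS, Tap1 averaged 9.28, 9.63 and 9.55 in experiments 1, 2 and 3. Over these arrays with LPS, B2m, Tap1 and all 3 immunoproteasome genes were lowest in experiment 1, while H2-K1, Tap2, Tapbp and Erap1 were lowest in experiment 2.

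A typical profile of the set was taken as the median over the 9 genes of their log2 values, each centered on its own mean over the 15 arrays. Psmb9 lay closest to it, with a root mean square distance of 0.06 log2 units, followed by Psmb10 and Psmb8 at 0.08 and 0.09. Tap1 and Erap1 lay farthest, at 0.32 and 0.31. The 9 genes themselves define the profile, so their distances are not comparable with those of other genes. Among all other tested genes the 5 with the nearest profile were Znfx1 (0.0682), Syvn1 (0.0726), Samhd1 (0.0742), Gas7 (0.0808) and Tes (0.083). Znfx1 and Samhd1 are known for antiviral defence, and Syvn1 encodes a ubiquitin ligase of the endoplasmic reticulum. Their means went from 8.46 to 9.09 for Znfx1, from 7.58 to 8.24 for Syvn1 and from 7.90 to 8.59 for Gas7 between no LPS and LPS with vehicle. This ranking is a description over 15 arrays that share groups and experiments.

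Markers of other cell types were read on the same arrays. Beside their counts for LPS stand the shares of all tested genes, 13.5% higher and 16.3% lower. The mean log2 value over 7 neutrophil markers lay between 2.75 and 3.05 without LPS and between 3.29 and 3.56 with LPS and vehicle. Of the 7, 1 exceeded the 40th percentile on all 3 arrays without LPS and 2 on all 3 with LPS and vehicle. There 2 of 4 tested markers rose, S100a8 by 1.30 (adjusted p = 0.00536 by limma) and Mmp8 (adjusted p = 0.0115 by limma, lost without the first LPS vehicle array at 0.0582 or the second no-LPS array at 0.0528), while Camp stayed below the 40th percentile in all groups. No size is given for Mmp8, since 2 of its 3 values without LPS (3.01, 2.71 and 3.495) were below the percentile. The mean over 9 fibroblast markers went from between 3.12 and 3.22 to between 3.36 and 3.45, with 1 of 8 tested markers called (Pdgfra, 0.96, adjusted p = 0.0472 by limma, lost without any of 7 arrays) and 2 with experiment as a block. The second was Fap, for which no size is given, since its means of 2.38 and 2.95 were below the percentile in both groups, and Lum stayed below the percentile in all groups. Of the 9 fibroblast markers, 4 exceeded the percentile on all 3 arrays without LPS and 5 on all 3 with LPS and vehicle. Col1a1, Col3a1 and Pdgfra did so in both groups. The mean over 7 lymphocyte markers was between 2.93 and 3.01 without LPS and between 2.84 and 3.15 with LPS and vehicle, with Cd4 called lower (adjusted p = 0.0346 by limma, lost without any of 4 arrays). No size is given for Cd4, since its mean of 3.07 with LPS and vehicle was below the percentile, as were Cd3e and Ms4a1 in all groups. Of the 7 lymphocyte markers, 3 exceeded the percentile on all 3 arrays without LPS and 1, Ncr1, on all 3 with LPS and vehicle. None of 7 tested dendritic cell markers was called. Of these 7, 5 exceeded the percentile on all 3 arrays without LPS, among them Cd209a at 8.16, 8.65 and 9.49. Of 9 epithelial and endothelial markers, 8 exceeded it on all 3 arrays without LPS. Among the 8 tested, Cdh5 rose (adjusted p = 0.0412 by limma, lost without any of 7 arrays, up to 0.173) and Vwf fell (adjusted p = 0.0136 by limma, lost without the second no-LPS array at 0.051 or the third LPS vehicle array at 0.068). Of 12 macrophage markers Adgre1, Fcgr1, Mertk and Cd14 rose and Csf1r and Tyrobp fell. The Csf1r call (adjusted p = 0.037 by limma) was lost without the first or second LPS vehicle array (0.117 and 0.0876) or the third no-LPS array (0.157), and with experiment as a block Lyz2 was lower too (adjusted p = 0.0461). Adgre1, an adhesion receptor gene of macrophages, rose by 4.50 (adjusted p = 2.26e-10 by limma). Whether these shifts have a part in the values of the class I genes was not tested.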

How the data were processed

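Total RNA was measured on 15 arrays. The authors deposited log2 values per probe set. Per the submitters' processing notes these were made with RMA, whose version is not given in the sources used here. Because RMA quantile-normalizes the arrays, a shift common to most genes is hidden, and changes of dim probe sets come out too small. No raw intensities or detection calls were used.

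Of 41345 probe sets, 23521 had exactly 1 symbol and 1814 several. The highest-mean probe set was kept for the 1082 genes with several, which left 22180 genes. Genes above the array's 40th percentile in at least 3 arrays (15468) were tested in R 4.3.3 with limma 3.58.1 on 5 group means over all arrays (10 residual degrees of freedom), two-sided, with Benjamini-Hochberg adjustment over all tested genes. Intervals are 95% intervals of log2 differences from this fit, without experiment as a block. The procedure was checked on simulated data whose noise held no experiment effect, so that check does not cover the pairing of arrays described below. Members and lists were chosen with earlier results of these data known. Named genes are all members, up to 3 genes a list by smallest p for LPS, Psmb5, Psmb6, Psmb7, Nlrc5, Irf1, Psme1, Psme2 and Calr, and the 5 nearest profiles (1 further gene of the rule is not reported here); Canx, Pdia3, Hfe, Psma2, Psme4, Irf2 and some markers were named after their values were seen. The labels tie each replicate number to 1 experiment, so the numbers pair the arrays. Over 30 same-numbered pairs, deviations from the group mean had correlations of 0.08 to 0.40, above 0.1 in 28, and all 15 arrays correlated best with their own number. The number of arrays limits precision.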

Additional observations from a re-analysis of the deposited data

How the results depend on the processing

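The count of class I genes called for LPS was 8 and ranged from 7 to 8 over 24 other settings, 15 of which each left out 1 array; it was 0 in every HDHEA comparison under all of them. In the fit with experiment as a replicate block (8 residual degrees of freedom) 8 were again called for LPS and 0 for the HDHEA treatments. Every setting kept the direction of the 8 genes, and 7 of them stayed called throughout; B2m ranged from 0.22 to 0.34 with adjusted p from 0.00127 to 0.0609 (limma). Centring each array on its median moved the median of all genes for LPS from 0.0002 to 0.0589. The total of called genes in the 8 related lists was 29 and ranged from 21 to 33. Single lists moved more: other core subunits from 1 to 5 rising genes, activators from 1 to 3, trimming from 0 to 2, and class II from 1 to 3, while falling genes ranged from 0 to 2 in any of the 8 lists. The within-array changes over all 12 LPS arrays ranged from 0.23 to 0.27 for Psmb8 minus Psmb5, from 0.52 to 0.58 for Psmb9 minus Psmb6 and from 0.51 to 0.58 for Psmb10 minus Psmb7. For LPS with vehicle against no LPS they ranged, in the same order, from 0.15 to 0.25, from 0.56 to 0.70 and from 0.61 to 0.70. There the adjusted exact permutation p reached 0.2, 0.15 and 0.15 over 8 other settings.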
